A study of Mus musculus with 9 samples.

Results

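The muscle acetylcholine receptor and the proteins that build and clear the neuromuscular junction were followed in mouse gastrocnemius, a calf muscle. The mice received ammonium acetate or saline. The set held 10 genes, taken by symbol from the 35275 genes of the deposited table, and each symbol had a single entry. They are 5 receptor subunits (Chrna1, Chrnb1, Chrnd, Chrne and Chrng), 3 organisers on the muscle side (Musk, Dok7 and Rapsn), and the enzyme acetylcholinesterase with its anchor (Ache and Colq). The mice were wild type on a C57BL/6J background, aged 8 to 10 weeks at treatment, and every one of them carried an implanted osmotic pump. In 5 libraries, numbered 4 to 8, the pump delivered ammonium acetate (2.5 mmol for each kg of body weight daily), and in 4 libraries, numbered 4, 5, 7 and 8, it had held phosphate-buffered saline (PBS). Muscle was taken 4 weeks after implantation, and RNA of the whole muscle was sequenced. The single comparison of the design is ammonium acetate against PBS. No group received acetate without ammonium, so effects of ammonium and of acetate cannot be told apart. The labels do not say that each library came from a different mouse, and p-values therefore speak only of the spread from library to library, part of which may be technical.

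At the junction, acetylcholine from the motor nerve opens a channel of 5 subunits in the fibre membrane. The adult channel holds an epsilon subunit, and the fetal channel holds a gamma subunit in its place; gamma returns when a muscle loses its nerve. Agrin from the nerve binds LRP4 on the fibre and turns on the kinase MuSK, which needs the adaptor DOK7, and rapsyn then packs the receptors into clusters. Acetylcholinesterase, held in the synaptic cleft by the collagen ColQ, ends each signal. The genes of these proteins are transcribed mostly by the few fibre nuclei that lie under the junction, where E-boxes bound by the myogenic factors and the N-box bound by ETS-family factors such as GABP are known control elements.

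Both groups held mRNA of the adult subunit and almost none of the fetal subunit, and no member differed between the groups past the threshold. The windows of 250 bases before the start sites of Chrne, Chrng and Chrna1 are printed because the first of these genes encodes the adult subunit, the second its fetal counterpart, and the third the acetylcholine-binding subunit, present in both receptor forms. They come from RefSeq on GRCm38.p6, read 5′ to 3′ on the strand of the gene, at chr11:70619195-70619444 (minus strand), chr1:87205561-87205810 (plus strand) and chr2:73580339-73580588 (minus strand). The Chrng window lies inside the gene as deposited, which starts at 87204657, so its RefSeq start differs from the deposited one. The same holds for the window of Ache and 1 window of Dok7, counted below. Capitals mark every E-box, CANNTG, and every N-box, searched as CCGGAA on both strands.
Chrne: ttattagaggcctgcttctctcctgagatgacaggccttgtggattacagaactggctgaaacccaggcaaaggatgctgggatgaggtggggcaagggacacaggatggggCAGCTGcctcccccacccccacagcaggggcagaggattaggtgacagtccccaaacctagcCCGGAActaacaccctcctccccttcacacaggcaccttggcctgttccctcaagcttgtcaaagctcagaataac
Chrng: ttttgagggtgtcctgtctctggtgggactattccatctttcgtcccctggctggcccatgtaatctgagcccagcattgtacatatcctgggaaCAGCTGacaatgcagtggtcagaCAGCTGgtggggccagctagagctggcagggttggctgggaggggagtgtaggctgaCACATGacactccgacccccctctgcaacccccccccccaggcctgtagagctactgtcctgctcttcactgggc
Chrna1: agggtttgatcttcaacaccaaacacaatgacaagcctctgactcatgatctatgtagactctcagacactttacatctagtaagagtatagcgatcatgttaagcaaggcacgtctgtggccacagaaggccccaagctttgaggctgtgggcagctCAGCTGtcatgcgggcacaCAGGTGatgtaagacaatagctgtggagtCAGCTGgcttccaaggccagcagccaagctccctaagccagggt
The Chrne window held 1 E-box, at positions -138 to -133 counted from the RefSeq start, and the N-box at -76 to -71. The Chrng and Chrna1 windows each held 3 E-boxes and no match to CCGGAA. RefSeq windows were found for 7 of the 10 members, the exceptions being Chrnd, Rapsn and Colq. E-boxes stood in a window of 7 of these 7 genes and in 66.2% of 32851 windows of the same length over all genes. Dok7 had 2 windows, 1 with an E-box and 1 without. The members are thus counted by gene and the background by window. The form CAGCTG, which is 1 of the sequences covered by CANNTG, stood in 4 of the 7 (Chrna1, Chrne, Chrng and Musk) and in 13.0% of all windows. The N-box stood in 1 of the 7 and in 12.0% of all windows. Such matches describe the letters of these windows and do not show binding.

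Levels are given as FPKM, fragments scaled by the length of the gene and by the fragments counted in the library. Comparisons across genes therefore rest on the gene lengths of the deposited data. The libraries held between 24930547 and 36756192 reads with ammonium acetate and between 25452271 and 41780251 with PBS, as recovered from the FPKM values. A pair of ammonium acetate libraries stood apart. In libraries 6 and 8 the level of a gene, set against its own mean over the 9 libraries, fell with its length. The fall was 0.171 and 0.165 on the log2 scale for each doubling of length. Measured in the same way, the trends of the other 7 libraries lay between -0.008 and 0.119. Ammonium acetate library 5 held mRNA of skin (Krt5, Krt10 and Lor summed to 44.5 FPKM, against 0.491 to 1.20 in the other libraries). Markers of fast fibres, which dominate this muscle, summed to between 35116 and 44956 FPKM with ammonium acetate and between 34997 and 40716 FPKM with PBS, and all 6 were present. Within that sum, Myh1 averaged 324 FPKM with ammonium acetate and 605 FPKM with PBS, and Myh2 averaged 250 FPKM with ammonium acetate and 434 FPKM with PBS, with log2 fold changes of -1.02 and -0.92 (limma unadjusted p = 0.0121 and 0.0492, adjusted p = 0.527 for both), whereas Tnnt3 and Pvalb had 0.25 and 0.32; their part in the members' values was not tested. Of 6 genes of the motor axon (Chat, Slc18a3, Slc5a7, Snap25, Syt1 and Nefl), whose mRNA lies in the spinal cord, the sums were at most 0.0863 FPKM with ammonium acetate and 0.0582 FPKM with PBS. Red cell genes (Hba-a1, Hbb-bs and Alas2) summed to 97.0 to 147 FPKM with ammonium acetate and 150 to 199 FPKM with PBS. In whole muscle, fewer junctional nuclei and less mRNA per nucleus cannot be told apart.

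Rapsn had the highest FPKM of the 10 mRNAs, with a mean of 18.4 FPKM over the 9 libraries. Its lowest library lay above the highest library of any other member. Musk (10.3 FPKM), Ache (9.26 FPKM) and Chrnb1 (9.01 FPKM) came next and could not be ranked among themselves, since Musk exceeded Ache in 6 of 9 libraries and Ache exceeded Chrnb1 in 5 of 9. Chrne (5.19 FPKM) lay below Chrnb1 in all 9 libraries, with no overlap. Its neighbour Dok7 (4.82 FPKM) was lower than Chrne in 6 of 9 libraries, Chrna1 (3.75 FPKM) was lower than Dok7 in 8 of 9, and Colq (3.18 FPKM) was lower than Chrna1 in 7 of 9, so the ranges of these neighbours overlapped. Chrnd (0.764 FPKM) stood apart below Colq, and Chrng (0.030 FPKM) stood apart below Chrnd, in 9 of 9 libraries each. Rapsn lay above 79.8% of the 11337 genes tested by its mean level, Chrne above 52.1% and Chrnd above 7.64%.

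**Figure D1:**
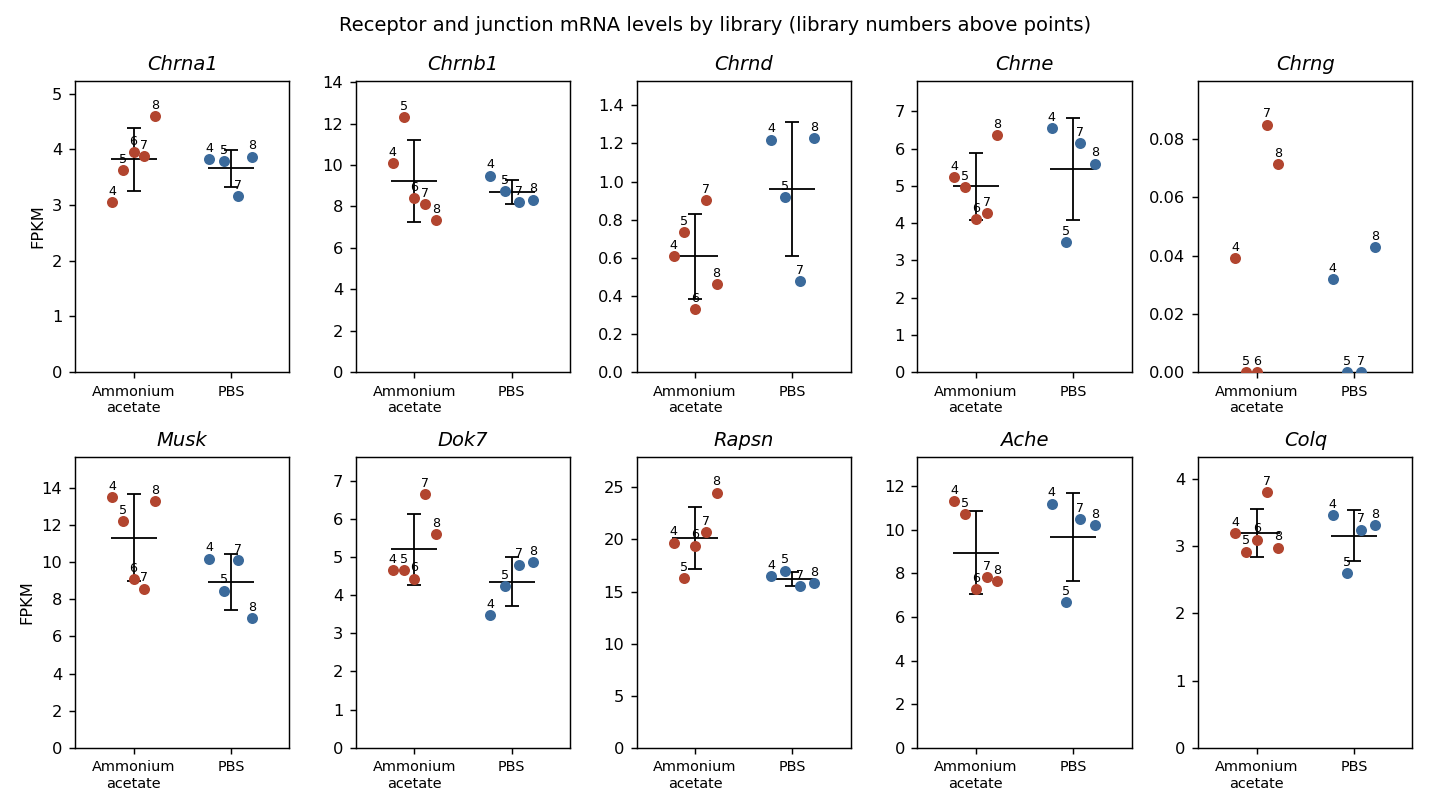
FPKM of each of the 10 members, with ammonium acetate libraries (red, n = 5) left of PBS libraries (blue, n = 4), numbers naming the libraries, and bars giving the mean ± SD except for Chrng. Rapsn lay at 16.3 FPKM or more in all 5 ammonium acetate libraries and at 17.0 FPKM or less in all 4 PBS libraries, whereas the other panels overlap more widely.

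By limma on log2(FPKM + 0.5) with Benjamini-Hochberg adjustment over 11337 genes, 0 of the 9 tested members passed an adjusted p of 0.05, and 0% of all tested genes did. Chrng was below the filter of a mean of 0.5 FPKM and was not tested. At an unadjusted p under 0.05 there was 1 member, Rapsn, of the 9, against 8.57% of all tested genes (3.21% higher and 5.36% lower in ammonium acetate), so the members' share lay near the background. No member had groups that did not overlap, which was seen in 2.13% of tested genes. Of the 9 members, 6 had log2 fold changes above 0, against 43.9% of all tested genes, and the median over the members was 0.05, against -0.035 over all genes. The 95% intervals of the 9 fold changes ran from -0.85 for Chrnd at the lowest to 0.68 for Musk at the highest, so on this scale each lay within a 2-fold change in either direction. A weighted fit of the recovered reads (limma's voom) gave likewise 0 members and 0 genes past the threshold; 972 genes had an unadjusted p under 0.05 in the first fit and 924 in the second.

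**Figure D2:**
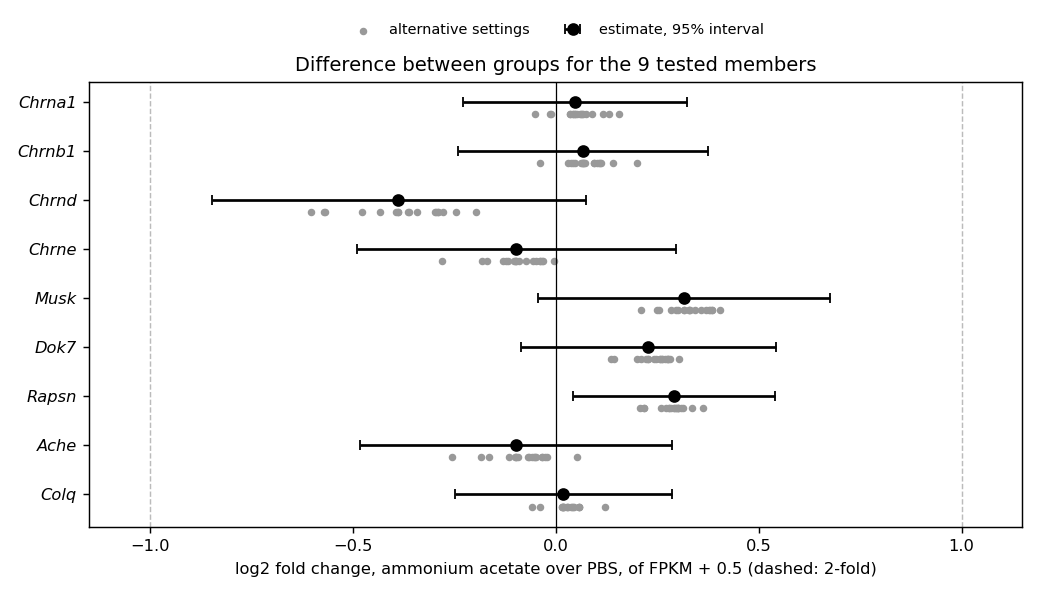
Log2 fold change of FPKM + 0.5, ammonium acetate over PBS, for the 9 tested members, with black points and bars for the estimate and its 95% interval, and grey points for the alternative settings. The interval of Rapsn, 0.04 to 0.54, was the only 1 of the 9 that did not reach 0, and no interval reached the dashed lines of a 2-fold change.

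Among the receptor subunits, the gamma subunit was nearly silent. Chrng (ENSMUSG00000026253, mm10 chromosome 1, 87204657 to 87212694) had 4, 0, 0, 8 and 7 reads in ammonium acetate libraries 4 to 8, against 3, 0, 0 and 4 reads in PBS libraries 4, 5, 7 and 8. In FPKM these were 0.0391, 0, 0, 0.0850 and 0.0715 with ammonium acetate, against 0.0318, 0, 0 and 0.0430 with PBS. Both groups thus included libraries with no read, and the highest 2 libraries had received ammonium acetate. A count of 0 allows up to 3 reads, or 0.0433, 0.0420, 0.0424 and 0.0258 FPKM in ammonium acetate 5 and 6 and PBS 5 and 7; these limits cover counting error only. No fold change is given at this depth.

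Chrne, the epsilon subunit of the adult receptor (ENSMUSG00000014609, chromosome 11, 70614883 to 70619216), stood at 5.24, 4.96, 4.10, 4.26 and 6.36 FPKM in ammonium acetate libraries 4 to 8, against 6.55, 3.48, 6.15 and 5.60 FPKM in PBS libraries 4, 5, 7 and 8. The ammonium acetate range lay wholly inside the PBS range, whose ends were libraries 4 and 5. Its log2 fold change came to -0.10 (standard error 0.18; limma adjusted p = 0.808). Chrne reads may include reads of 4930544D05Rik, which lies inside the gene on the opposite strand and was listed at 0 to 1.11 FPKM, because no source used here gives the strand setting of the counting.

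Chrna1, the alpha subunit that binds acetylcholine (ENSMUSG00000027107, chromosome 2, 73563215 to 73580338), measured 3.05, 3.62, 3.95, 3.88 and 4.59 FPKM in ammonium acetate libraries 4 to 8, against 3.82, 3.79, 3.16 and 3.87 FPKM in PBS libraries 4, 5, 7 and 8. Both the lowest and the highest of the 9 values belonged to ammonium acetate. The log2 fold change came to 0.05 (standard error 0.13; limma adjusted p = 0.865), and it was -0.05 without ammonium acetate libraries 6 and 8. Chrnb1, the beta subunit (ENSMUSG00000041189, chromosome 11, 69784036 to 69795943), had 10.1, 12.3, 8.42, 8.10 and 7.33 FPKM with ammonium acetate and 9.49, 8.75, 8.19 and 8.33 FPKM with PBS, in the same order of libraries. Here 2 ammonium acetate libraries exceeded every PBS library and 2 lay below every PBS library. The highest was library 5, the one with skin mRNA, and the log2 fold change of 0.07 (standard error 0.14, limma adjusted p = 0.834) was -0.04 without it.

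Chrnd, the delta subunit (ENSMUSG00000026251, chromosome 1, 87190607 to 87200070), had the lowest fold change of the 9. It measured 0.609, 0.734, 0.330, 0.901 and 0.462 FPKM in ammonium acetate libraries 4 to 8, against 1.22, 0.919, 0.479 and 1.23 FPKM in PBS libraries 4, 5, 7 and 8. All 5 ammonium acetate libraries were below the PBS mean, and PBS library 7 lay among them. The means were 0.607 ± 0.224 FPKM with ammonium acetate (SD, n = 5) and 0.961 ± 0.351 FPKM with PBS (SD, n = 4). The log2 fold change came to -0.39, 95% interval -0.85 to 0.07 (limma adjusted p = 0.527). These levels rested on 25 to 122 reads per library, and at such levels the added 0.5 FPKM shrinks the fold, which was -0.60 by voom on the reads (adjusted p = 0.544). Without ammonium acetate libraries 6 and 8, which had the 2 lowest of the 9 values, it was -0.20.

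By FPKM within each of the 9 libraries, Chrnb1 was the highest of the subunits, Chrnd the fourth and Chrng the lowest. Chrne lay above Chrna1 in 8 of 9, PBS library 5 being the exception. Chrnb1 mRNA was 1.6 to 3.41 times that of Chrna1 over the 9 libraries, and Chrne was 0.918 to 1.95 times that of Chrna1. Chrnd reached 0.164 ± 0.0669 of Chrna1 with ammonium acetate (SD, n = 5) and 0.257 ± 0.079 with PBS (SD, n = 4), and the ranges overlapped. Of the summed FPKM of the 5 subunits, Chrne made up 26.7 ± 4.31% with ammonium acetate and 28.8 ± 5.86% with PBS, and Chrng made up at most 0.493% in any library. The receptor protein holds alpha in excess over the other subunits, an order that the FPKM values did not share. Those values rest on listed gene lengths of 4386 bases for Chrna1, 2155 for Chrnb1 and 1616 for Chrne. In reads summed over the ammonium acetate libraries, Chrna1 had 2618, Chrne 1276 and Chrnb1 3079. Over the PBS libraries the sums were 2139, 1220 and 2512 in the same order, so Chrna1 exceeded Chrne by reads.

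**Figure D3:**
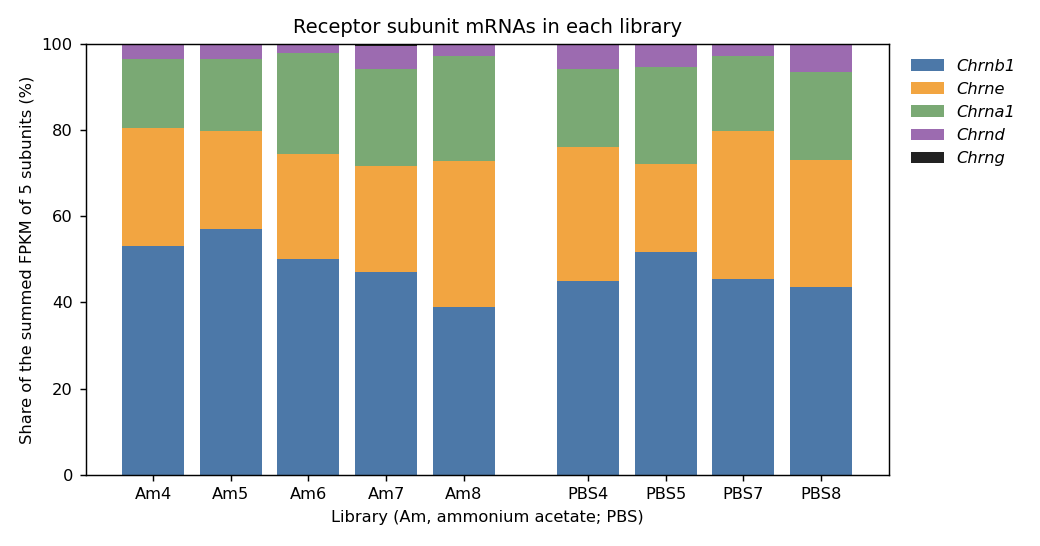
Share of each receptor subunit in the summed FPKM of the 5 subunits, in percent, with ammonium acetate libraries (Am) left of PBS libraries. Chrnb1 was the largest share in all 9 bars, at 39.0% to 57.0%, and Chrng is barely visible at the top, with a highest share of 0.493%.

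The organisers on the muscle side had the 3 highest fold changes of the 9 tested members, though none passed the threshold. Rapsn, which encodes the clustering protein rapsyn (ENSMUSG00000002104, chromosome 2, 91035620 to 91045729), measured 19.7, 16.3, 19.4, 20.7 and 24.5 FPKM in ammonium acetate libraries 4 to 8, against 16.5, 17.0, 15.5 and 15.8 FPKM in PBS libraries 4, 5, 7 and 8. Apart from library 5, the ammonium acetate libraries lay above every PBS library. The means were 20.1 ± 2.98 FPKM with ammonium acetate (SD, n = 5) and 16.2 ± 0.684 FPKM with PBS (SD, n = 4). The log2 fold change came to 0.29 (standard error 0.11) and a 95% interval of 0.04 to 0.54 (limma unadjusted p = 0.0255, adjusted p = 0.527). Over the alternative settings the value stayed between 0.21 and 0.36, the lowest being that without ammonium acetate libraries 6 and 8. Gm13778, on the opposite strand over the end of the gene, was listed at 0 to 0.880 FPKM.

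Musk, the receptor kinase that agrin activates (ENSMUSG00000057280, chromosome 4, 58285960 to 58374303), had 13.5, 12.2, 9.08, 8.58 and 13.3 FPKM in ammonium acetate libraries 4 to 8, against 10.2, 8.47, 10.1 and 6.99 FPKM in PBS libraries 4, 5, 7 and 8. Of the ammonium acetate libraries, 3 exceeded every PBS library and 2 lay within the PBS range. Its log2 fold change came to 0.32, 95% interval -0.04 to 0.68 (limma adjusted p = 0.527). Dok7, the adaptor that holds MuSK active (ENSMUSG00000044716, chromosome 5, 35056813 to 35087839), had 4.65, 4.65, 4.43, 6.65 and 5.60 FPKM with ammonium acetate and 3.48, 4.24, 4.80 and 4.87 FPKM with PBS, in the same order. All 5 ammonium acetate values lay above the PBS mean, and 2 of them above every PBS library. The log2 fold change came to 0.23, 95% interval -0.09 to 0.54 (limma adjusted p = 0.531), and it was 0.14 without PBS library 4 and 0.14 without ammonium acetate library 7. With each library's trend on gene length removed, the fold changes were 0.22 for Rapsn, 0.37 for Musk and 0.24 for Dok7. Without ammonium acetate libraries 6 and 8 they were 0.21, 0.33 and 0.26 in the same order.

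The cholinesterase genes varied between libraries of both groups. Ache (ENSMUSG00000023328, chromosome 5, 137287519 to 137294466) measured 11.3, 10.7, 7.28, 7.83 and 7.64 FPKM in ammonium acetate libraries 4 to 8, against 11.2, 6.68, 10.5 and 10.2 FPKM in PBS libraries 4, 5, 7 and 8. In each group the values fell into higher and lower libraries, with PBS library 5 the lowest of all 9. The log2 fold change came to -0.10 (standard error 0.18; limma adjusted p = 0.801), and it was 0.05 without ammonium acetate libraries 6 and 8. Colq (ENSMUSG00000057606, chromosome 14, 31523082 to 31591343) had 3.20, 2.92, 3.10, 3.81 and 2.98 FPKM with ammonium acetate and 3.46, 2.60, 3.25 and 3.32 FPKM with PBS, in the same order. It was the steadiest member, with a coefficient of variation of 10.8% over the 9 libraries, against 42.6% for Chrnd, and its log2 fold change came to 0.02 (standard error 0.12; limma adjusted p = 0.954). GENCODE M21 places Gm49387 on the same strand over part of Colq and Gm42456 on the opposite strand over part of Ache; neither was analysed here. PBS library 5 was the lowest of all 9 libraries for Ache, Colq and Chrne, and no other library was lowest for more than 1 tested member. It also had the highest sums of tendon markers (Scx, Tnmd and Fmod, 206 FPKM) and of fibro-adipogenic markers (Pdgfra, Dcn, Ly6a and Col1a1, 452 FPKM). Scx alone was highest in ammonium acetate library 6. PBS library 8 came next in both sums, at 172 and 432 FPKM, and was lowest only for Musk. The part of tissue makeup in these values was not tested. Ufsp1, a protease gene that starts 163 bases after the end of Ache, was listed at 14.2, 12.6, 7.89, 10.2 and 10.5 FPKM with ammonium acetate and 14.9, 9.62, 9.99 and 11.5 FPKM with PBS. Ache was 0.694 to 1.05 times the level of Ufsp1 over the 9 libraries.

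Genes that act with the members lay mostly lower in ammonium acetate, without any of them passing the threshold. Over all 11337 tested genes, the background for these lists, 4979 had log2 fold changes above 0 and 6358 below, with a median of -0.035. In the lists of related genes, 56 of 74 passed the filter, 11 above 0 and 45 below, with a median of -0.295. Of these 56, 0 reached an adjusted p of 0.05 by limma. Their median gene length was 4422 bases, against 3015 over all tested genes, and the length trend of ammonium acetate libraries 6 and 8 described above moved with these values. Values with the trend removed, and values without these 2 libraries, are therefore given beside them.

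Of 21 genes of the agrin pathway and the scaffold under the receptor, 6 were higher and 15 lower; the list's median log2 fold change, -0.24, was -0.01 with the length trend removed and -0.06 without libraries 6 and 8. Agrn, which encodes agrin, measured 0.681 ± 0.272 FPKM with ammonium acetate (SD, n = 5) and 1.05 ± 0.139 FPKM with PBS (SD, n = 4). Its groups did not overlap, which held for 1 of the 56 related genes and for 2.13% of all tested genes, a share near the background; the gene is named here after its values were seen. Its log2 fold change was -0.43 (limma adjusted p = 0.527), -0.15 with the length trend removed and -0.17 without libraries 6 and 8. Since mRNA of the motor axon lies in the spinal cord, these values do not measure the agrin supplied by the nerve. Lrp4, the agrin receptor, also named after its values were seen, measured 1.31 ± 0.493 FPKM with ammonium acetate and 1.54 ± 0.309 FPKM with PBS, and its fold change of -0.20 became 0.05 with the trend removed and 0.002 without libraries 6 and 8. The 3 genes of smallest p in this list were Utrn, a relative of dystrophin at the junction, Sntb1, a syntrophin, and Plec, a linker of the cytoskeleton. Utrn had a fold change of -0.76, which was -0.40 with the trend removed and -0.37 without libraries 6 and 8. For Sntb1 the value was -0.48, again -0.48 with the trend removed, and -0.30 without libraries 6 and 8, which had its 2 lowest levels of the 9 (1.20 and 1.13 FPKM). For Plec it was -0.64, then -0.21 and -0.16 in the same order.

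The basal lamina that fills the synaptic cleft had 9 of 9 tested genes lower, with a median of -0.52, which was -0.34 with the length trend removed and -0.12 without libraries 6 and 8. Nid1, a linker of laminin and collagen, measured 9.39 ± 3.50 FPKM with ammonium acetate (SD, n = 5) and 15.4 ± 3.0 FPKM with PBS (SD, n = 4), and its log2 fold change was -0.75 (limma adjusted p = 0.527), -0.55 with the trend removed and -0.34 without libraries 6 and 8. The other genes of smallest p were Hspg2, which encodes perlecan, at -0.76 (-0.36 and -0.22 in the same order of settings), and the laminin chain Lama4 at -0.55 (-0.35 and -0.23). Most of these genes are expressed along the whole fibre and by vessels. Endothelial markers (Pecam1, Cdh5, Kdr and Tek) summed to 32.5 to 72.1 FPKM with ammonium acetate and 69.4 to 80.2 FPKM with PBS. Markers of fibro-adipogenic cells (Pdgfra, Dcn, Ly6a and Col1a1) summed to 197 to 291 FPKM with ammonium acetate and 182 to 452 FPKM with PBS. All 4 markers of each of these lists had lower means with ammonium acetate. Their part in the lamina values was not tested.

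Neuregulin receptors and the factors of junctional transcription had 7 tested genes, 2 higher and 5 lower, with a median of -0.10, which was 0.03 with the length trend removed and 0.002 without libraries 6 and 8. Etv5, an ETS factor of junctional nuclei, measured 3.04 ± 0.786 FPKM with ammonium acetate (SD, n = 5) and 3.91 ± 0.637 FPKM with PBS (SD, n = 4), a log2 fold change of -0.34 (limma adjusted p = 0.527), which was -0.25 with the trend removed and -0.13 without libraries 6 and 8. Gabpa, a subunit of the N-box factor GABP, had a fold change of -0.29 (-0.15 and -0.14 in the same order of settings), and Prkar1a, a regulatory subunit of protein kinase A, had -0.10 (-0.04 and -0.05). Nrg1 was listed at 0 in all 9 libraries. Among genes known from junctional nuclei, Phldb2 had a fold change of -0.38 (-0.21 with the trend removed and -0.16 without libraries 6 and 8) and Gramd1b of -0.37 (-0.14 and -0.23). Ufsp1 had -0.06 (-0.19 with the trend removed), and its sign turned, to 0.11, without libraries 6 and 8.

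The channels that carry the signal along the fibre had 5 of 5 tested genes lower, with a median of -0.34, which was -0.15 with the length trend removed. Without libraries 6 and 8, 1 was higher and 4 were lower, with a median of -0.11. Cacna1s, the voltage sensor of the T-tubule, measured 145 ± 25.5 FPKM with ammonium acetate (SD, n = 5) and 183 ± 18.1 FPKM with PBS (SD, n = 4), and its fold change of -0.36 (limma adjusted p = 0.527) became -0.15 with the trend removed and -0.23 without those libraries. Scn4a, the muscle sodium channel, had -0.47 (-0.25 and -0.11 in the same order of settings) and Clcn1, the chloride channel, had -0.34 (-0.27 and -0.15).

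The list of regulators known to act on receptor genes in denervated muscle also held Ncam1, an adhesion molecule. Of its 7 tested genes, 2 were higher and 5 lower. The list's median, -0.21, was the value of Ncam1. It was -0.14 with the length trend removed and -0.094 without libraries 6 and 8. Hdac4, a histone deacetylase that rises on denervation, measured 3.92 ± 0.978 FPKM with ammonium acetate (SD, n = 5) and 5.25 ± 0.562 FPKM with PBS (SD, n = 4). Its log2 fold change was -0.40 (limma adjusted p = 0.527), -0.15 with the length trend removed and -0.24 without libraries 6 and 8. Dach2, a repressor of Myog, had -0.50 (-0.34 and -0.44 in the same order of settings), and the adhesion molecule Ncam1 had -0.21 (-0.14 and 0.007). Myog, the E-box factor myogenin, was measured at 2.13, 2.15, 3.86, 13.8 and 8.24 FPKM in ammonium acetate libraries 4 to 8, against 7.25, 4.05, 2.96 and 3.91 FPKM in PBS libraries 4, 5, 7 and 8; it is named after its values were seen. The ammonium acetate libraries held both the 2 lowest and the 2 highest values, and the log2 fold change came to 0.11, 95% interval -0.90 to 1.1; it was 0.025 with the trend removed and -0.055 without libraries 6 and 8. The 2 libraries of highest Myog were also the 2 of highest Chrng, at 8 and 7 reads. In other libraries the orders differed. Ammonium acetate library 4, the lowest in Myog, had 4 Chrng reads, and PBS library 5, at 4.05 FPKM of Myog, had 0. A link between the 2 genes was not tested.

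**Figure D4:**
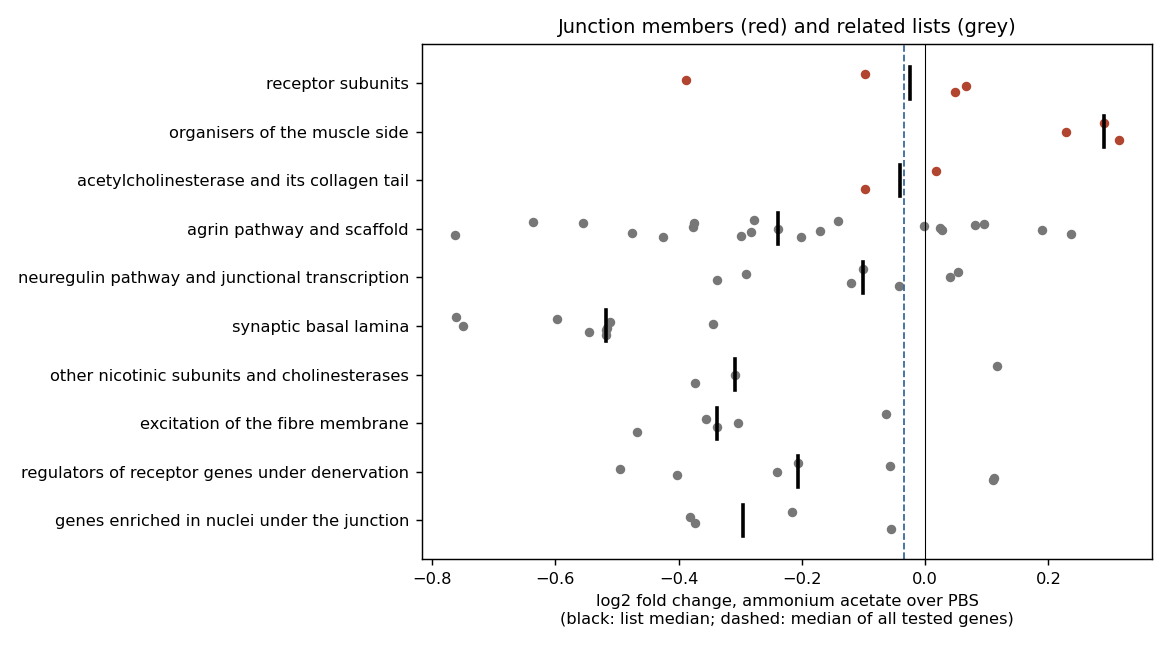
Log2 fold change of FPKM + 0.5, ammonium acetate over PBS, of each tested gene in the 3 groups of members (red) and the 7 lists of related genes (grey), with black bars for list medians and a dashed line at -0.035 for the median of all tested genes. The organisers lie at 0.23 to 0.32, the receptor subunits on both sides of 0, and the basal lamina genes between -0.76 and -0.34.

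The genes whose levels over the 9 libraries were most like those of Rapsn were Rras2, Tex30, Bap1, Creb3 and Rxrb, with Pearson's r of log2(FPKM + 0.5) between 0.95 and 0.98. Those most like Chrnb1, the most abundant receptor subunit, were Serbp1, Rab3a, Alg12, Lor and Trp63, with r between 0.830 and 0.936. Lor is a skin gene that stood at 9.09 FPKM in ammonium acetate library 5, where Chrnb1 was also highest, and at 0.321 FPKM or less elsewhere. By ranks, its likeness to Chrnb1 (Spearman's rho) was 0.678, and r without that library was not computed. Serbp1, Rab3a, Alg12 and Trp63 were highest in that library too. The r values are the highest over the 11337 tested genes with predicted genes skipped, taken over libraries of both groups. They are given as a description.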

How the data were processed

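Bulk RNA-seq of gastrocnemius was analysed from 9 libraries. The authors deposited FPKM values for 35275 genes, with coordinates and gene lengths in bases. STAR, TopHat, HTSeq and DESeq2 are listed, with the build mm10 but no version or role, per the submitters' processing notes. No source used here gives the strand setting or the handling of fragments that match several genes. The samples were grouped by title. FPKM times gene length gave whole reads for 100.0% of values above 0, within 0.05 read, and these reads served for depth and for voom. No pair of libraries was identical.

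Genes with a mean of at least 0.5 FPKM (11337) were tested by limma 3.58.1 (R 4.3.3), its trend option on, after taking log2 of FPKM + 0.5; tests were two-sided and p-values were adjusted by Benjamini-Hochberg, threshold 0.05; fold changes on this scale understate the change of low genes. The fit was tested on simulated data. Tables and figures used Python 3.11.15, pandas 2.3.3, numpy 2.4.6 and matplotlib 3.10.9. The alternatives covered the pseudocount, filter, scaling, voom, gene length trend (lowess, span 0.3), replicate number and libraries left out. The members and gene lists were chosen with earlier results of these data known. The named genes were the 10 members, the 3 genes of smallest p in each list of related genes, and the 5 most like Chrnb1 and Rapsn, skipping predicted genes; some items that these rules name are not reported here. Composition markers were read as sums. Overlapping genes came from GENCODE M21 (GRCm38), whose coordinates equalled those of 9 of the 10 members.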

Additional observations from a re-analysis of the deposited data

Results flagged for a closer look

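Within each group, the highest and lowest library of each tested member was set against its neighbour by Dixon's criterion. Of 18 sets, 1 was past the limit: Chrna1 in PBS library 7 stood at 3.16 FPKM, and the nearest of the other PBS libraries at 3.79 FPKM. Chance flags about 1 in 20 such sets. The fold change of Chrna1 was -0.01 without that library, against 0.05 with it.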

How the results depend on the processing

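The number of members past the threshold was 0 under each of the 19 alternatives, and so was the number of all genes, which limma gave as 0 with 972 genes at an unadjusted p under 0.05 (voom: 924; 256 to 1730 over the 19 alternatives). The smallest adjusted p of a member was 0.321 to 1 over these alternatives. Rapsn, Musk and Dok7 stayed above 0 and Chrnd and Chrne below 0 in every alternative run; Chrnd had 18, since it fell under the stricter filter. Without ammonium acetate libraries 6 and 8, Chrna1 had a log2 fold change of -0.052 and Ache 0.052, on the other side of 0 from 0.05 and -0.10 with all libraries. With single libraries left out, the fold changes ran from -0.014 to 0.116 for Chrna1, -0.038 to 0.141 for Chrnb1, -0.059 to 0.058 for Colq, -0.256 to -0.021 for Ache, -0.568 to -0.290 for Chrnd, -0.280 to -0.005 for Chrne, 0.209 to 0.405 for Musk, 0.137 to 0.281 for Dok7 and 0.218 to 0.363 for Rapsn. The sign turned for Chrna1 without ammonium acetate 8 (-0.014) or PBS 7 (-0.012), for Chrnb1 without ammonium acetate 5 (-0.038) and for Colq without ammonium acetate 7 (-0.038) or PBS 5 (-0.059); the cause was not tested. With the replicate number as a block, 0 members passed, and 260 genes had an unadjusted p under 0.05. The labels do not say whether equal numbers mark paired libraries. Same-numbered libraries had correlations of their deviations from the group means between -0.337 and -0.073. Differently numbered libraries had -0.287 to 0.351. These correlations cannot decide whether the libraries were paired, since they also hold effects of single libraries. Depth limits Chrng, with at most 8 reads per library, and Chrnd, with 25 reads in its lowest library.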

Other observations

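Beside the muscle subunits, Chrna10, a subunit best known from hair cells of the inner ear, was read at 3.09, 2.41, 2.46, 3.17 and 2.76 FPKM in ammonium acetate libraries 4 to 8, against 2.52, 3.92, 4.07 and 4.73 FPKM in PBS libraries 4, 5, 7 and 8. Its log2 fold change was -0.37 (limma adjusted p = 0.527), -0.38 with the length trend removed and -0.33 without ammonium acetate libraries 6 and 8. The gene overlaps Art1 on the opposite strand, which was listed at 143 to 212 FPKM, and without a known strand setting the reads of the pair cannot be told apart. Of the 11 other nicotinic subunits in the list of related genes, Chrna10 alone passed the filter. Bche, butyrylcholinesterase, measured 0.905 ± 0.333 FPKM with ammonium acetate (SD, n = 5) and 1.22 ± 0.228 FPKM with PBS (SD, n = 4), a fold change of -0.31, which was -0.11 with the length trend removed and -0.21 without ammonium acetate libraries 6 and 8. Prima1, the membrane anchor of acetylcholinesterase, measured 3.39 ± 1.19 FPKM with ammonium acetate (SD, n = 5) and 2.97 ± 0.332 FPKM with PBS (SD, n = 4). Its fold change of 0.12 turned sign under both settings, to -0.012 and -0.062.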
